A study of Mus musculus with 3 samples.

Results

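The genes described here are 35 DNA repair genes, chosen by symbol from the gene list of the count matrices, which name 31253 genes. All 35 were found, and each had UMIs (unique molecular identifiers, 1 per captured RNA molecule) in all 3 libraries. They were grouped in 7 pathways: double-strand break sensing and signalling (Atm, Atr, Rad50, Mre11a, Nbn, Trp53bp1), homologous recombination (Brca1, Brca2, Palb2, Rad52), non-homologous end joining (Xrcc5, Xrcc6, Prkdc, Dclre1c, Xrcc4, Lig4, Nhej1), nucleotide excision repair (Xpc, Xpa, Ddb1, Ddb2, Ercc1 to Ercc5), base excision and single-strand break repair (Ogg1, Apex1, Parp1, Xrcc1, Lig1, Lig3), mismatch repair (Msh6), and damage tolerance and nucleotide supply (Polk, Rrm2b). They were measured by droplet single-cell RNA sequencing of dissociated jaw tissue from wild-type, male C57BL/6 mice of 10 weeks. The Ctrl mice were not irradiated, and the 1d and 7d mice received 10 Gy over head and neck and were killed 1 or 7 days later. Each group had 8 mice and 1 library, and the cells had been released with collagenase II, frozen and thawed. With a single library per group no difference has a replicate check, no test was made, and every interval is an exact 95% interval for counting error only.

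Double-strand breaks are bound by the Mre11a, Rad50 and Nbn complex, which activates the kinase Atm, and are then joined either end to end or by copying a sister chromatid. End joining needs no template and works throughout the cell cycle, whereas homologous recombination is used after DNA replication, when a sister is present. Developing B and T cells also make breaks on purpose: the Rag1 and Rag2 recombinase cuts antigen receptor genes, Dclre1c (Artemis) opens the hairpin ends, and the Xrcc6 and Xrcc5 dimer (Ku70 and Ku80), Xrcc4 and Lig4 join them.

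After filtering, 8623 Ctrl, 4879 1d and 6094 7d cells were kept, with medians of 2419, 5022 and 3816.5 UMIs per cell. Between 20 and 25 kept barcodes of each library also occurred in another library. Clustering gave 27 clusters, of which 20 carried the markers of 15 classes, written here as "-like", and 7 were left unnamed and are called by 2 leading genes. A cell was called cycling when UMIs of at least 2 of the 6 genes Mki67, Top2a, Cdk1, Birc5, Pclaf and Rrm2 were left after thinning to 1000 UMIs. There were 60 such cells in Ctrl (0.729%), 548 at 1d (11.5%) and 462 at 7d (7.68%). A further 259, 460 and 478 cells had exactly 1 of the 6 genes and were counted as non-cycling. Without thinning, far more progenitors met the rule. They were 89.0% in place of 17.6% of granulocyte progenitor-like cells and 68.4% in place of 19.3% of the Pf4 and Muc13 cluster, both at 7d. The rise was smaller in pro-B-like cells at 1d, 79.6% in place of 62.7%. Many cells counted as non-cycling in these classes therefore met the rule at full depth. Levels are counts of a gene per 1000000 UMIs (CPM) of the summed cells of a class, in 45 pairs of class and library with at least 50 non-cycling cells. Because the assay reads 3′ ends, a gene's level is compared with its own level elsewhere.

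The start regions of 5 members whose levels in cycling cells or in B-cell precursors are described below are shown from RefSeq, on GRCm38.p6 and on the gene's strand. Brca1 is chr11:101551956-101552205 (minus strand), Brca2 is chr5:150522371-150522620 (plus) and Xrcc6 is chr15:82016119-82016368 (plus), each the 250 bases before a start listed in the RefSeq table. For Brca2 and Xrcc6 that start lies downstream of the first base of the annotated gene, so the stretch is inside the gene's span. Msh6 is chr17:87975054-87975083 and Lig1 is chr7:13278841-13278870 (both plus), each a 30-base stretch around a match. Lig1 has 3 starts in the table, and the window of 1 of them holds the match. Capitals mark an E2F-type word (TTTCCCGC, TTTGGCGC, TTTCGCGC or TTTGCCGC, on either strand) or, in Brca1, a CCAAT word. E2F factors are known to control genes of DNA replication.
Brca1: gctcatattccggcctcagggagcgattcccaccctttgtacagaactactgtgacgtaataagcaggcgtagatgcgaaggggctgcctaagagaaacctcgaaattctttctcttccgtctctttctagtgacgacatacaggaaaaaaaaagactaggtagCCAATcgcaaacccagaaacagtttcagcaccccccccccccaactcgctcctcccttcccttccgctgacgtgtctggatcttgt
Brca2: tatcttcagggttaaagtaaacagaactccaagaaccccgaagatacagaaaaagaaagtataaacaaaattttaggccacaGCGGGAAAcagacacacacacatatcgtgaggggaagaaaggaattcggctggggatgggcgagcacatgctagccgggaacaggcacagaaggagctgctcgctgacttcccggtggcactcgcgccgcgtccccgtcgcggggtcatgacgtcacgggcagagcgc
Xrcc6: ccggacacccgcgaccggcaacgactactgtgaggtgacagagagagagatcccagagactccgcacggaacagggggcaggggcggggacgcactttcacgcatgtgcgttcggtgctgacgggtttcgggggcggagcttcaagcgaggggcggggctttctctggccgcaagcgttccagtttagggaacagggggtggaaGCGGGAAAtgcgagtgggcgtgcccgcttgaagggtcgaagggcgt
Msh6: ctcctcccgacTTTCCCGCcagcggcggcc
Lig1: cgccaaagtgcGCGCGAAAtctgtgtggcg

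An E2F-type word lay 168 bases before the start in Brca2, 46 bases before it in Xrcc6, 15 bases after it in Msh6 and 26 bases after 1 of the 3 starts of Lig1. Of the 35 members, 28 had 32 windows of 300 bases (250 before and 50 after a start) in the RefSeq table. These 4 were the only windows with an E2F-type word (12.5%, against 2.26% of 32851 windows of all genes). CCAAT or its reverse complement was in 15 of the 32 windows (46.9%, against 37.4% of all), and the B-lineage EBF word (TCCC, any 2 bases, GGGA) was in 0 of them (0.904% of all). A match is a description of these letters and not a site or a cause. Brca1, which was higher in cycling cells of all 7 pairs compared below, had no E2F-type word in its window.

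B-cell precursors had the highest summed level of the 35 genes, and mature neutrophils the lowest. In non-cycling cells the sum was 1639 CPM (1559 to 1723) in pro-B and large pre-B cell-like cells at 1d and 1501 CPM (1417 to 1588) at 7d. It was 1316 CPM (1269 to 1364) in small pre-B and immature B cell-like cells at 1d, 112 to 162 CPM in mature neutrophil-like cells, and 481.6 CPM at the median of the 45 pairs. Of the 35 members, 13 had their highest level in a B-precursor class (37.1%, against 15.5% of the 15701 genes with at least 20 UMIs), 6 in mature B cell-like cells (17.1%, against 5.72%) and 3 in granulocyte progenitor-like cells (8.57%, against 3.75%). For 10 of the 13 at most 5 other pairs had an interval that overlapped the highest one, whereas for the 6 in mature B cell-like cells 8 to 34 pairs did. Ctrl held no pro-B-like cell and 42 small pre-B-like cells, against 292 and 917 at 1d and 138 and 32 at 7d. The levels of these classes therefore come mainly from irradiated libraries and say nothing of a change with irradiation.

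**Figure D1:**
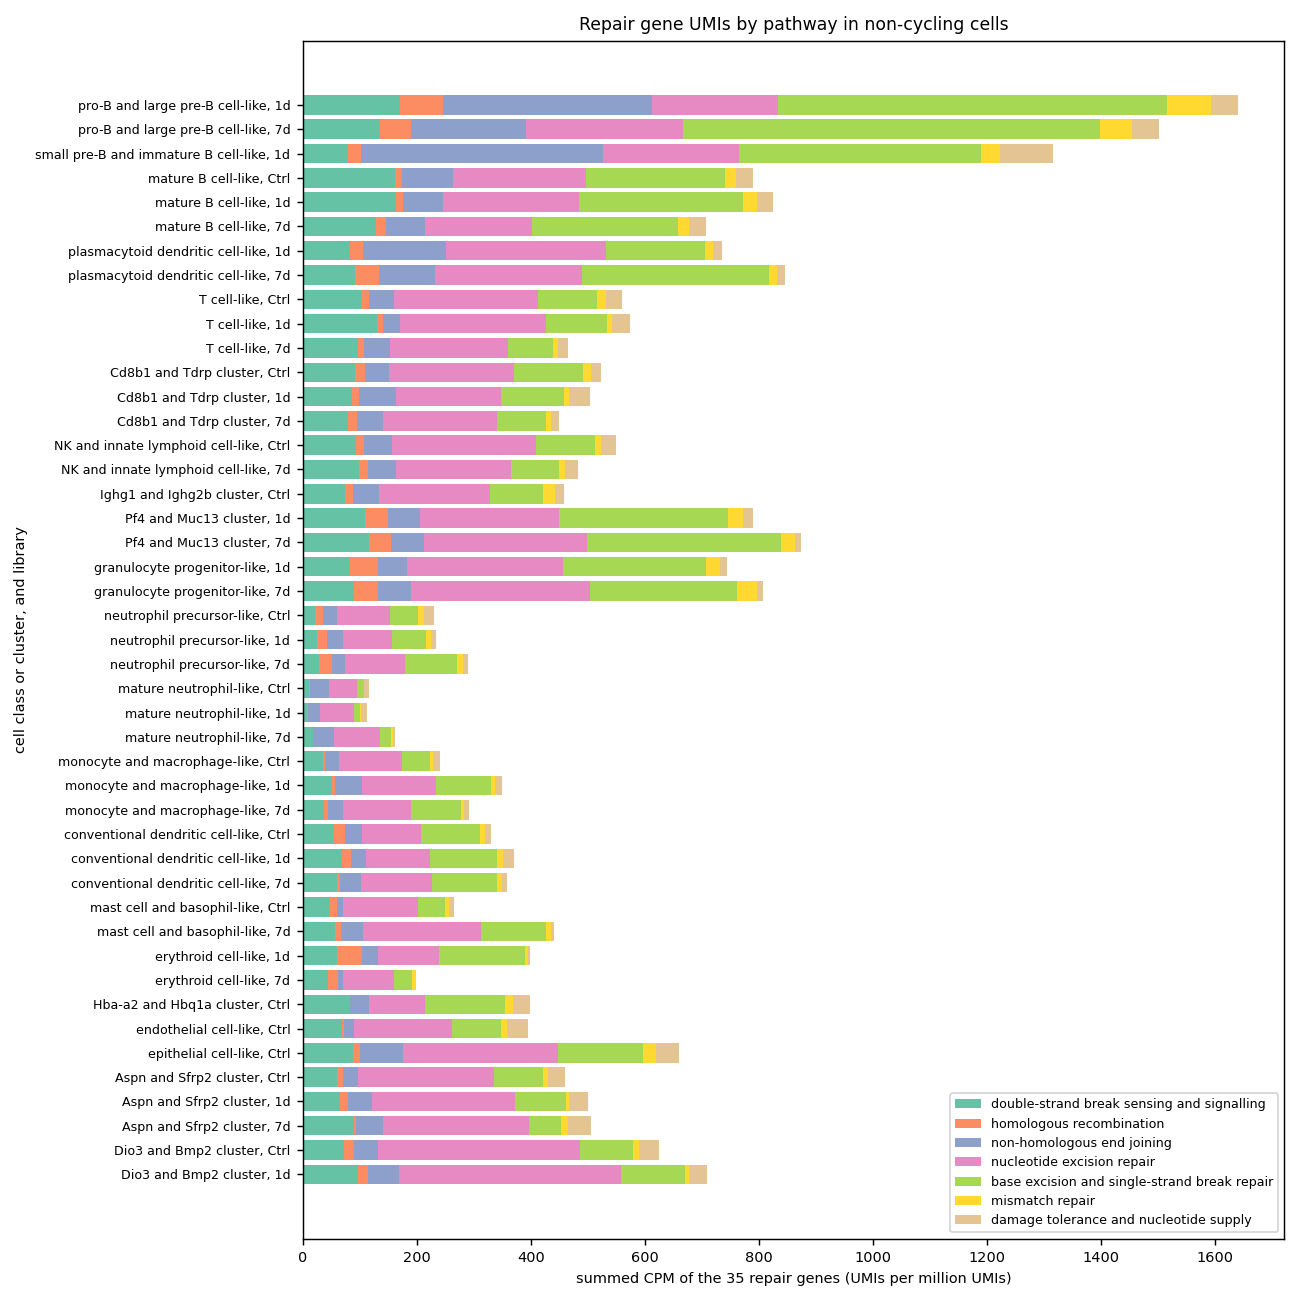
Summed CPM of the members of each of the 7 pathways (stacked, x axis, linear from 0) in non-cycling cells of each class and library (y axis). The 2 pro-B-like bars reach 1639 and 1501 CPM, and the mature neutrophil-like bars stay at or under 162 CPM.

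The end joining genes had their highest levels in 6 different classes. Xrcc6 (Ku70; ENSMUSG00000022471, chr15:81987833-82040085, GRCm38.p6), which binds broken ends, was high in B-cell precursors. In non-cycling cells Xrcc6 stood at 318 CPM (296 to 343) in small pre-B-like cells at 1d, 278 CPM (245 to 314) in pro-B-like cells at 1d and 144 CPM (119 to 173) in pro-B-like cells at 7d. The next pairs were plasmacytoid dendritic cell-like cells with 28.9 CPM at 1d and 27.6 CPM at 7d, and the median pair had 4.09 CPM. The intervals of the first 2 pairs overlapped, and both lay above every other pair. The few small pre-B-like cells of the other libraries gave 52.8 CPM in Ctrl (14.4 to 135; 4 UMIs from 39 cells) and 122 CPM at 7d (52.8 to 241; 8 UMIs from 30 cells). Mature B cell-like cells had 4.09, 11.3 and 2.27 CPM in Ctrl, 1d and 7d, so in the B lineage the high level was seen in the precursor classes and not in the mature class.

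The same pattern was seen cell by cell. After thinning to 1000 UMIs, 25.3% of small pre-B-like cells at 1d (224 of 885, 22.5 to 28.3%) had an Xrcc6 UMI, against 46.0% without thinning at a median of 2335 UMIs. Pro-B-like cells had 29.8% at 1d (76.0% unthinned, median 5473.5 UMIs) and 19.6% at 7d (57.6%, median 5571 UMIs). Mature neutrophil-like cells of the same 1d library (median 2640 UMIs) had an Xrcc6 UMI in 2 of 369 thinned cells (0.542%, 0.0657 to 1.94%). Those at 7d had 0 of 132 (up to 2.76%). Those of Ctrl (median 1985 UMIs), a library with few B-cell precursors, had 0 of 2473 (up to 0.149%). Xrcc6 was the only member among the 2000 variable genes used for clustering. With all members and cycling genes left out of the clustering, its level was 317 CPM in small pre-B-like cells at 1d and 271 CPM in pro-B-like cells at 1d.

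Lig4 (ENSMUSG00000049717, chr8:9970020-9977680), the ligase that seals the joined ends, had the same leading classes. It stood at 49.1 CPM (40.4 to 59.1) in small pre-B-like cells at 1d, 46.9 CPM (34.1 to 62.9) in pro-B-like cells at 1d and 16.2 CPM in pro-B-like cells at 7d, with a median of 2.07 CPM. Dclre1c was highest in plasmacytoid dendritic cell-like cells, at 82.9 CPM (60.0 to 112) at 1d and 49.7 CPM at 7d, followed by mature B cell-like Ctrl cells at 49.7 CPM and small pre-B-like cells at 38.9 CPM. It was also 1 of the few members well measured in mature neutrophil-like cells, at 29.0, 16.1 and 37.9 CPM in Ctrl, 1d and 7d. Xrcc5, whose protein is the partner of Ku70, did not share the pattern: it had 3.54 CPM in small pre-B-like cells at 1d, 8.52 and 21.2 CPM in pro-B-like cells, and its highest level, 34.9 CPM (23.9 to 49.3), in epithelial cell-like Ctrl cells. Prkdc, the DNA-dependent protein kinase, was highest in mature B cell-like cells at 7d (22.7 CPM), Xrcc4, the scaffold of Lig4, in the Dio3 and Bmp2 cluster at 1d (14.0 CPM), and Nhej1 in granulocyte progenitor-like cells at 7d (7.71 CPM). Of the 7 end joining genes, Xrcc6 and Lig4 thus had their highest level in B-precursor classes.

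**Figure D2:**
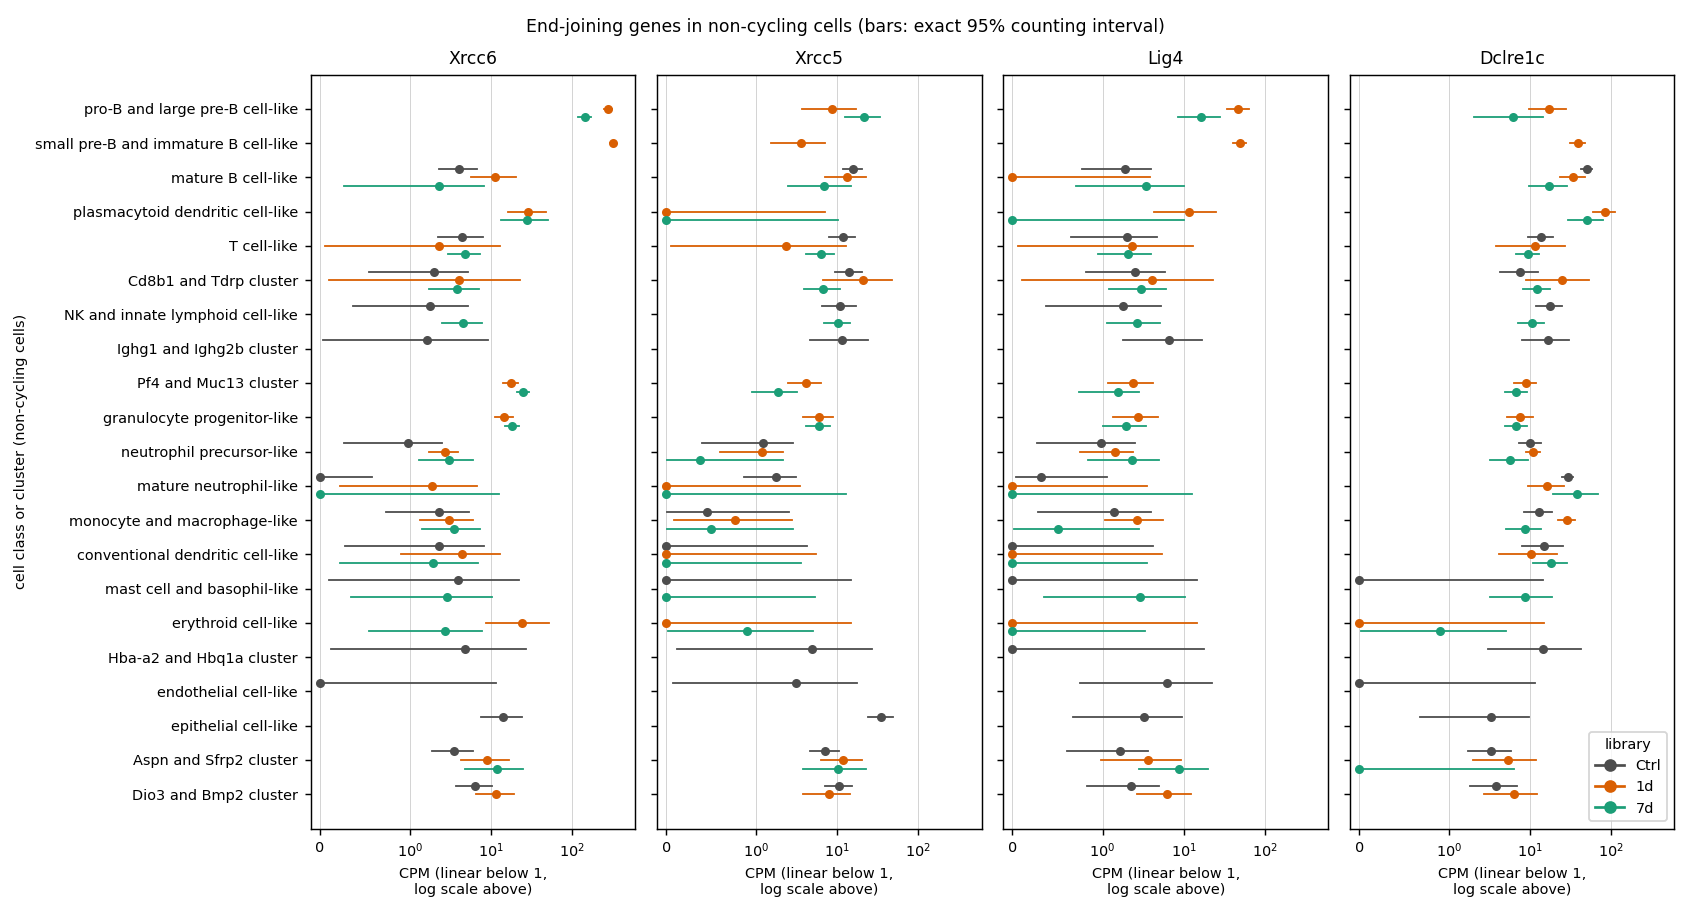
CPM of Xrcc6, Xrcc5, Lig4 and Dclre1c in non-cycling cells by class (axis linear below 1 CPM and logarithmic above), with points for libraries and bars for exact 95% counting intervals. Xrcc6 and Lig4 peak in the B-precursor classes, at 318 and 49.1 CPM, and Xrcc5 and Dclre1c do not.

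Among the sensing genes, the Rad50 and Mre11a subunits of the end-binding complex were highest in pro-B-like cells at 1d, at 56.5 CPM (42.3 to 73.8) and 36.2 CPM (25.1 to 50.6). The third subunit, Nbn, was highest in mature B cell-like cells at 1d (25.7 CPM), where its interval, 16.6 to 37.9, overlapped those of most leading pairs. Atr, the kinase of stalled replication forks, had its 3 highest levels in mature B cell-like cells: 39.6 CPM in Ctrl, 44.2 CPM at 1d and 39.8 CPM at 7d. These did not differ beyond counting error. Trp53bp1, which protects ends from resection, was also highest in mature B cell-like cells at 7d (39.8 CPM) and Ctrl (37.1 CPM), with 22.6 CPM at 1d. Atm was highest in the Cd8b1 and Tdrp cluster at 1d, at 40.9 CPM with a wide interval of 19.6 to 75.3.

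Among the homologous recombination genes, Brca1, Brca2 and Palb2 had their highest levels in progenitor classes and Rad52 did not. Brca1 (ENSMUSG00000017146, chr11:101488761-101551955), which promotes resection of broken ends, had 43.7 CPM (31.3 to 59.3) in non-cycling pro-B-like cells at 1d and 18.7 CPM at 7d. It had 22.1 and 18.9 CPM in granulocyte progenitor-like cells at 1d and 7d, and it was at 0 in mature neutrophil-like cells at 1d and 7d. Brca2, which acts after resection, had 16.2 CPM in pro-B-like cells at 7d and 13.1 CPM in granulocyte progenitor-like cells at 7d, with overlapping intervals. Palb2, which bridges the 2 proteins, peaked at 7.35 CPM in granulocyte progenitor-like cells at 1d. Rad52, an annealing factor, was highest in plasmacytoid dendritic cell-like cells, at 22.1 CPM at 7d and 21.2 CPM at 1d, with intervals that overlapped those of 28 pairs.

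Nucleotide excision repair genes were spread over more classes. Xpc, which recognises distorted DNA (chr6:91489305-91515888), was highest in granulocyte progenitor-like cells, at 93.7 CPM (84.5 to 104) at 1d and 92.6 CPM (85.1 to 101) at 7d. It had 21.3, 13.2 and 22.4 CPM in neutrophil precursor-like cells of Ctrl, 1d and 7d, and at 1d and 7d, where both classes had enough cells, the level was lower in the precursors than in the progenitors. Ddb1, the adaptor of a damage-binding ubiquitin ligase, was highest in the Dio3 and Bmp2 cluster, at 275 CPM (247 to 305) at 1d and 234 CPM (216 to 253) in Ctrl, with a median of 96.9 CPM. Its damage-binding partner Ddb2 stayed at or under 23.6 CPM, with that level in the Cd8b1 and Tdrp cluster at 7d and 20.5 CPM in T cell-like Ctrl cells. The helicases differed from each other: Ercc3 led in T cell-like cells at 1d (65.1 CPM) and Ercc2 in mature B cell-like cells (24.6, 27.7 and 31.8 CPM in Ctrl, 1d and 7d). The nuclease subunit Ercc1 was highest in the Dio3 and Bmp2 cluster (33.5 CPM at 1d, 28.3 CPM in Ctrl), and its partner Ercc4 in mature B cell-like cells at 7d (17.1 CPM). The other nuclease, Ercc5, led in plasmacytoid dendritic cell-like cells at 1d (30.9 CPM) and the damage verifier Xpa in NK and innate lymphoid cell-like Ctrl cells (30.6 CPM), both with intervals that overlapped those of the next pairs.

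**Figure D3:**
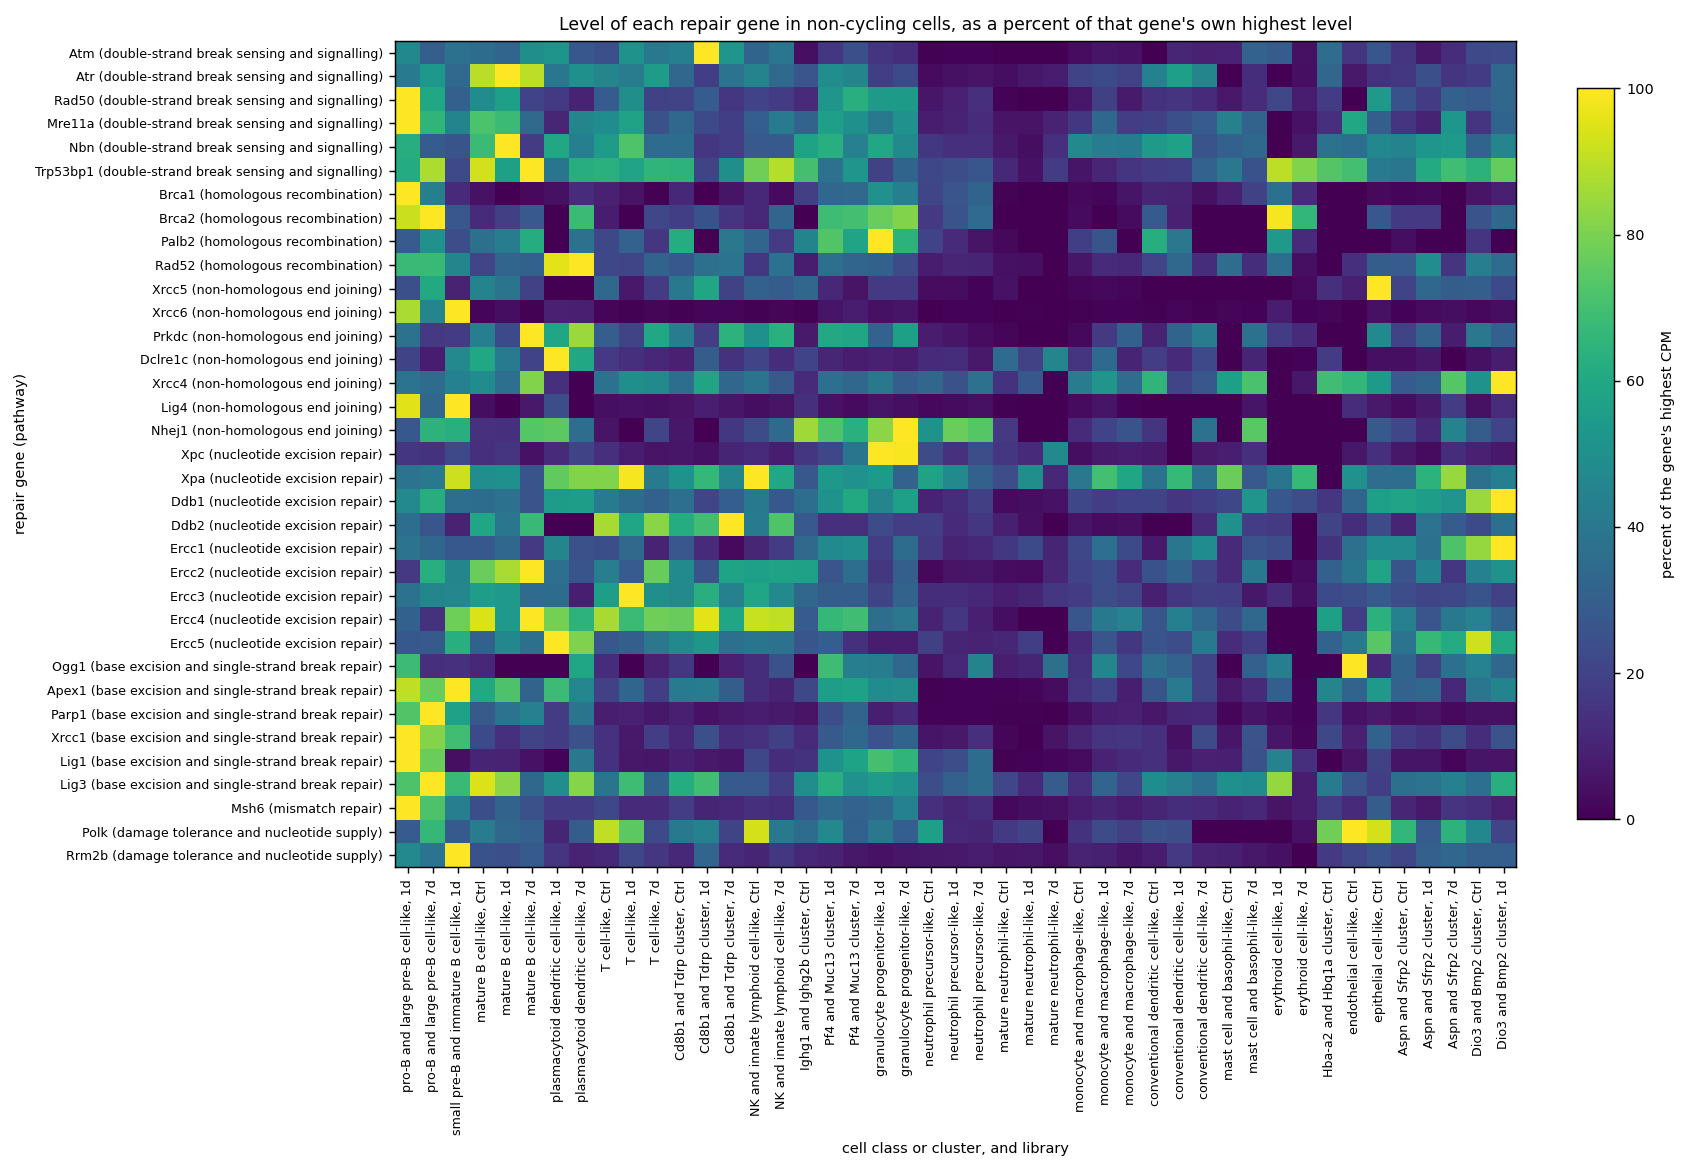
Level of each of the 35 genes (rows, by pathway) in non-cycling cells of 45 pairs of class and library (columns), as a percent of that gene's own highest CPM. The B-precursor columns hold the highest level of 13 genes, and the mature neutrophil-like columns are dark (low) for most rows.

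Base excision and single-strand break genes were again high in B-cell precursors. Parp1 (ENSMUSG00000026496, chr1:180568891-180600999), which senses strand breaks and builds poly(ADP-ribose), had 431 CPM (386 to 478) in pro-B-like cells at 7d, 313 CPM (278 to 351) at 1d and 246 CPM (226 to 268) in small pre-B-like cells at 1d, with a median of 30.5 CPM. These 3 intervals did not overlap. Parp1 was also high in mature B cell-like cells (121, 163 and 190 CPM in Ctrl, 1d and 7d), unlike Xrcc6. Lig1, the replication and repair ligase, had 180 CPM (154 to 209) and 139 CPM (115 to 168) in pro-B-like cells at 1d and 7d, and 127 and 118 CPM in granulocyte progenitor-like cells. Xrcc1, a repair scaffold, had 67.1 and 54.8 CPM in pro-B-like cells and 46.4 CPM in small pre-B-like cells. Apex1, the abasic site endonuclease, had 107 CPM in small pre-B-like cells and 96.9 CPM in pro-B-like cells at 1d, which overlapped. Lig3 was highest in pro-B-like cells at 7d (23.6 CPM), level within error with mature B cell-like Ctrl cells (22.4 CPM), and the oxidised-guanine glycosylase Ogg1 did not exceed 9.32 CPM in any pair.

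The mismatch sensor subunit Msh6 was highest in pro-B-like cells, at 77.8 CPM (61.0 to 97.8) at 1d and 56.0 CPM (40.8 to 74.9) at 7d, against a median of 10.2 CPM. Rrm2b, the p53-inducible ribonucleotide reductase subunit (chr15:37923952-37961119), was highest in small pre-B-like cells at 1d, at 88.0 CPM (76.2 to 101), followed by 41.5 and 33.6 CPM in pro-B-like cells at 1d and 7d. Its median was 10.0 CPM. Polk, a translesion polymerase, had no leading class: endothelial, epithelial, NK and T cell-like Ctrl cells stood between 16.9 and 18.6 CPM with overlapping intervals.

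Mature neutrophil-like cells had little of any pathway. In all 3 libraries 25 members were under 5 CPM, and Atm, Brca2 and several others had 0 UMIs in some or all of them. The share of all genes under 5 CPM was not taken, so this count does not set repair genes apart from other genes. Xpc (14.9, 11.4 and 44.8 CPM in Ctrl, 1d and 7d), Dclre1c and Ddb1 (8.23, 10.4 and 13.8 CPM) were the main exceptions. The mature neutrophil-like class at 7d held 132 non-cycling cells, against 2473 in Ctrl, so its Xpc interval was wide (23.8 to 76.6).

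Cycling and non-cycling cells could be compared in 7 pairs of class and library with at least 50 of each. A gene with at least 20 UMIs over both sides was called when the ratio was at least 1.5-fold and its whole interval lay on that side of 1. Homologous recombination was the pathway whose summed level was higher in cycling cells in all 7 pairs, with ratios of 1.49 and 1.88 in the Pf4 and Muc13 cluster at 1d and 7d, 10.6 in erythroid cell-like cells at 7d, 1.48 in granulocyte progenitor-like cells at 7d, 3.37 and 3.20 in neutrophil precursor-like cells at 1d and 7d, and 1.54 in pro-B-like cells at 1d. Every one of these intervals lay above 1. The sum was carried by Brca1 and Brca2: Rad52 was below 1 in 2 of the 5 pairs with enough UMIs (0.433 to 1.55) and Palb2 in 2 of 3 (0.471 to 1.21), with no call. End joining gave 0.688, 0.814, 3.66, 0.786, 1.33, 1.76 and 0.736 in the same order, so it was below 1 in 4 of the 7. Nucleotide excision repair gave 0.805, 0.837, 1.55, 0.845, 1.32, 1.29 and 1.04.

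Brca1 was called higher in all 7 pairs. Its level in non-cycling and cycling cells was 14.4 and 31.2 CPM in the Pf4 and Muc13 cluster at 1d (ratio 2.17, 1.48 to 3.16), 15 and 38.7 CPM there at 7d (2.58, 1.86 to 3.55), and 18.9 and 38.8 CPM in granulocyte progenitor-like cells (2.06, 1.45 to 2.88). In neutrophil precursor-like cells it was 11.5 and 36.6 CPM at 1d (3.19, 2.42 to 4.21) and 14.0 and 43.8 CPM at 7d (3.12, 1.95 to 5.01). In pro-B-like cells it was 43.7 and 71.8 CPM (1.64, 1.15 to 2.39), and in erythroid cell-like cells 5.37 and 96.4 CPM (18.0, 8.04 to 49.8). Cycling cells of every pair thus stood between 31.2 and 96.4 CPM, above all non-cycling levels but that of pro-B-like cells. When the ratio was taken within finer clusters it was 1.25 in neutrophil precursor-like cells at 1d and 1.30 in pro-B-like cells, no longer calls, and between 1.73 and 6.56 in the other 5 pairs. With cycling called without thinning, the ratio was much larger, from 7.57 in the Pf4 and Muc13 cluster at 1d to 63.9 in erythroid cell-like cells, in the 6 pairs that could then be compared.

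Brca2 was above 1 in 7 of 7 pairs (1.19 to 7.91) and called in 4, and Lig1 was above 1 in 7 of 7 (1.20 to 7.06) and called in 3. Within finer clusters the Lig1 calls in neutrophil precursor-like cells, 2.70 at 1d and 2.32 at 7d, were 1.13 and 1.32 and lost. Msh6 was called higher in 4 pairs (1.51, 3.68, 3.14 and 3.24) and was below 1 in 2. Its 1.51 in the Pf4 and Muc13 cluster at 7d was lost under 8 of 14 alternatives, and its 3.14 in neutrophil precursor-like cells at 1d was 1.47 within finer clusters and lost. Trp53bp1, which opposes resection, went the other way: it was called lower in 4 pairs, with ratios of 0.392 and 0.416 in the Pf4 and Muc13 cluster at 1d and 7d, 0.464 in neutrophil precursor-like cells at 1d and 0.513 in pro-B-like cells. Within finer clusters the neutrophil precursor-like value was 0.796 and not a call, and the pro-B-like call was lost under 6 of 15 alternatives. Its call of 1.70 in erythroid cell-like cells became 0.707 with TMM scaling. Xrcc6 in pro-B-like cells was lower in cycling cells, 183 CPM (165 to 204) against 278 CPM (ratio 0.659, 0.560 to 0.777), a call lost under 6 alternatives. Nhej1 there was higher (4.92, on 20 against 2 UMIs). Its call was lost with cycling called without thinning, with 1 of 6 genes and with 3 of 6 genes. In neutrophil precursor-like cells, where its level is low, Xrcc6 was higher in cycling cells (2.48 at 1d and 4.23 at 7d). Within finer clusters these Xrcc6 ratios were 1.33, no longer a call, and 2.95. The 7d call was lost with 1 of 6 genes.

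The number of members called must be read against all genes of the same pair. In neutrophil precursor-like cells at 1d, 15 of 31 members were higher (24.8% of all genes were) and 1 was lower (10.6%). At 7d, 8 of 19 were higher (17.4%) and 0 were lower (8.3%). In erythroid cell-like cells 10 of 11 were higher where 70.6% of all genes were, and Xpa (0.315) was the 1 lower call (4.42%). In the Pf4 and Muc13 cluster 3 of 32 were higher and 2 lower at 1d (12.2% and 12.7% of all genes), and 3 of 33 and 2 at 7d (5.76% and 6.72%). In granulocyte progenitor-like cells 1 of 34 was higher and 1, Xpc at 0.613, was lower (4.16% and 5.06%), and in pro-B-like cells 2 of 33 were higher and 2 lower (6.58% and 8.14%). The members' shares were near the background except in neutrophil precursor-like and erythroid cell-like cells. In those, cycling cells also differed in other ways: at 1d neutrophil precursor-like cells had a median of 16480 UMIs when cycling and 6832.5 when not, and the TMM scaling factor (a trimmed mean over all genes) was 1.26 (log2) in erythroid cell-like cells and 0.26 in neutrophil precursor-like cells at each time. The sum of all 35 members was 1.92-fold in neutrophil precursor-like cells at 1d and 1.16-fold within finer clusters, and 3.68-fold and 2.05-fold in erythroid cell-like cells, where it was 1.53-fold with TMM scaling. In erythroid cell-like cells the higher calls of Brca1, Brca2, Xrcc1 and Lig1 were kept in every alternative run, and those of Rad50, Mre11a, Parp1 and Msh6 were lost with TMM scaling. The part of these values in the ratios was not tested. In neutrophil precursor-like cells at 7d, 53.3% of the Parp1 UMIs of cycling cells came from 1 cell, so its ratio of 4.23 rests on that cell.

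**Figure D4:**
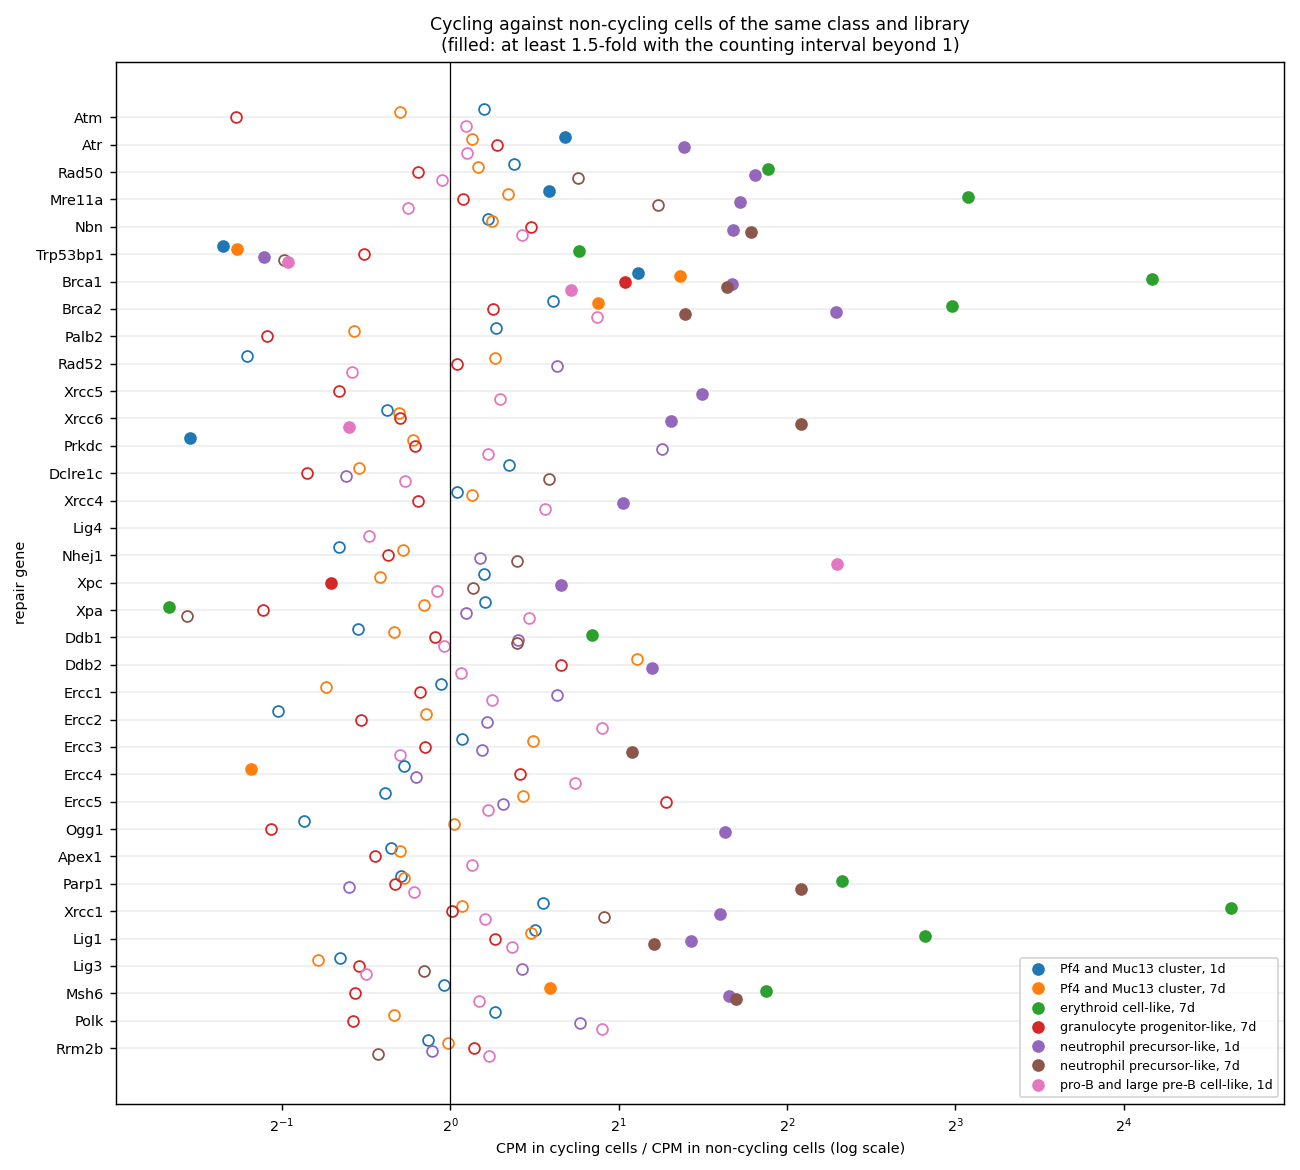
Ratio of CPM in cycling over non-cycling cells (x axis, logarithmic) for each of the 35 genes (rows) in 7 pairs of class and library, with filled points where the gene was called. Brca1 is filled and right of 1 in all 7 pairs, from 1.64 to 18.0, and Trp53bp1 is left of 1 and filled in 4.

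Irradiated and control libraries could be compared in the non-cycling cells of 8 classes. No class had 50 cycling cells in Ctrl, so no such comparison was made in cycling cells. At 1d, 14 of 170 member values were called higher (8.24%, against 6.68% over all genes of the 8 classes together) and 6 lower (3.53%, against 6.38%). Monocyte and macrophage-like cells held 6 of the 14 higher calls, out of 21 members with enough UMIs (12.2% of all genes were called higher there), and 0 lower (7.11%). They were Parp1 at 35.4 against 16 CPM (ratio 2.22, 1.49 to 3.37), Lig1 at 17.3 against 5.47 CPM (3.16, 1.65 to 6.57), Dclre1c at 28.5 against 12.8 CPM (2.23, 1.43 to 3.58), Rad50 at 10.8 against 3.65 CPM (2.95, 1.31 to 7.50), Mre11a at 12.3 against 5.93 CPM (2.08) and Xpa at 21.5 against 12.3 CPM (1.75). The sum of all members was 1.45-fold (1.30 to 1.62). Within finer clusters the sum was 1.23-fold, and Xpa was 1.08-fold and no longer called. The others were still called: Parp1 at 1.72, Dclre1c at 1.84, Rad50 at 2.60, Mre11a at 2.01 and Lig1 at 2.31. The Lig1 ratio ran from 1.13 to 7.15 over the alternatives and lost its call with doublets kept and with cycling called without thinning. The latter also ended the calls of Rad50 and Mre11a, whereas Parp1 and Dclre1c kept theirs in all 16 alternatives run. Without thinning, 1.499% of these cells in Ctrl, 8.971% at 1d and 3.869% at 7d met the cycling rule. Of the 467, 376 and 336 non-cycling cells, 11, 29 and 12 had exactly 1 of the 6 genes. The part of such cells in the ratios was not tested further. In monocyte and macrophage-like cells of Ctrl, 1d and 7d, the summed monocyte markers stood at 4077, 6098 and 7149 CPM, the macrophage markers at 3233, 2213 and 3134 CPM and the mature neutrophil markers at 5266, 2016 and 631.9 CPM. The part of these markers in the ratios was not tested.

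In neutrophil precursor-like cells at 1d, 0 of 28 members were higher (9.55% of all genes) and 3 were lower (14.9%). Both shares were under those of all genes. The sum of all members was 1.02-fold, and 0.831-fold within finer clusters. Polk had 2.16 CPM at 1d against 10.5 CPM in Ctrl (ratio 0.205, 0.114 to 0.356), and 1.90 CPM at 7d (0.180). This was the furthest called member ratio in either direction at 1d, and both calls were kept in every alternative run. Xpc had 13.2 against 21.3 CPM (0.619, and 0.404 within finer clusters) and Ercc5 a ratio of 0.551. The Xpc call was lost under 4 of 16 alternatives and the Ercc5 call under 6 of 15. The granulocyte progenitor markers in neutrophil precursor-like cells summed to 5491, 3872 and 2612 CPM in Ctrl, 1d and 7d, and their part was not tested.

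The lymphoid classes differed in few members at 1d. In T cell-like cells 1 of 25 was higher (3.67% of all genes) and 0 were lower (4.51%): Ercc3, at 65.1 against 36.5 CPM (1.78). In mature B cell-like cells 1 of 29 was higher (3.77%) and 1 lower (3.24%): Xrcc6 at 11.3 against 4.09 CPM (2.76, on 11 and 15 UMIs), and Trp53bp1 at 22.6 against 37.1 CPM (0.609). The small pre-B markers summed to 461.5 and 497.3 CPM in mature B cell-like cells of Ctrl and 1d, and with 5% of the UMIs subtracted as free RNA of the library the Xrcc6 ratio was 2.41 and no longer a call. At Leiden resolution 2 it was 2.45, also not a call. In the Cd8b1 and Tdrp cluster 3 of 21 were higher (3.78%) and 1 lower (3.59%): Atm (2.32), Dclre1c (3.25) and Rrm2b (2.84), and Ddb1 (0.571). Each of these 4 calls was lost in at least 1 alternative, in a cluster with 59 non-cycling cells at 1d. In the Aspn and Sfrp2 cluster 2 of 27 were higher (7.76%) and 0 lower (6.18%), Xpa (1.81) and Ercc5 (1.76). These calls were lost under 8 of 14 (Xpa) and 4 of 14 (Ercc5) alternatives. In mature neutrophil-like cells 1 of 11 was higher (4.47%) and 1 lower (4.44%), Xpa (2.08) and Dclre1c (0.556). This Xpa call was kept in all 15 alternatives run, and the Dclre1c call was lost under 4 of 17. Conventional dendritic cell-like cells had 0 calls among 8 members (6.69% higher and 5.23% lower among all genes). Xpa was above 1 in 7 of 8 classes at 1d, with a median ratio of 1.53. Ddb2 reached the minimum in 4 classes, with ratios of 0.662 to 1.12 and no call. Rrm2b was called in the Cd8b1 and Tdrp cluster and in no other class.

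At 7d, 17 of 172 values were higher (9.88%, against 13.3% over all genes of the 8 classes together) and 22 lower (12.8%, against 13.8%), and mature B cell-like cells, T cell-like cells and the Cd8b1 and Tdrp cluster held 7, 8 and 3 of the lower calls. The comparison uses the same Ctrl library as that at 1d. In mature B cell-like cells 2 of 28 members were higher (7.71% of all genes) and 7 were lower (12.7%). Dclre1c had 17.1 CPM at 7d against 49.7 CPM in Ctrl (0.343, 0.188 to 0.581), with 33.9 CPM at 1d. All 3 subunits of the end-binding complex were lower: Nbn (0.260), Rad50 (0.412) and Mre11a (0.482). Xpc (0.355), Lig3 (0.356) and Apex1 (34.1 against 65.2 CPM, 0.523) were the other 3. Prkdc was higher, at 22.7 against 9.82 CPM (2.31), and so was Parp1, at 190 against 121 CPM (1.57, 1.31 to 1.88). The sum of all members was 0.897-fold. The calls of Dclre1c, Nbn, Rad50 and Prkdc were kept in every alternative that could be run. The plasma cell markers summed to 2106, 835 and 748 CPM in mature B cell-like cells of Ctrl, 1d and 7d, and their part was not tested.

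T cell-like cells had the most lower calls, 8 of 29 members (16.5% of all genes), and 3 higher (7.64%). Polk had 4.15 against 16.9 CPM (0.246), Lig1 11.1 against 26.5 CPM (0.418), Xpc a ratio of 0.377, Ercc1 0.402, Xpa and Mre11a 0.509 each, Xrcc5 0.535 and Msh6 0.547. The higher members were Prkdc (1.99), Ercc2 at 24.4 against 13.6 CPM (1.79) and Atm (1.65). The sum was 0.833-fold (0.778 to 0.893). The class joins 2 clusters, with 458 and 283 cells in Ctrl and 991 and 197 at 7d. Within finer clusters Polk was 0.445, still a call, and Atm was 1.39 and no longer one. Mature B cell-like and T cell-like cells thus shared higher Prkdc and lower Xpc and Mre11a. In T cell-like cells the haemoglobin genes, a measure of free RNA, summed to 7648 CPM in Ctrl and 2866 CPM at 7d, and the NK markers to 553 and 821 CPM, and their part was not tested. In the Cd8b1 and Tdrp cluster 1 of 28 was higher (8.28%), Ddb2 (1.61), and 3 were lower (15.1%): Xrcc5 (0.477), Lig3 (0.460) and Ercc1 (0.0927, on 2 against 18 UMIs). The Ddb2 call was lost under 6 of 14 alternatives and the Lig3 call under 3 of 13. Those of Xrcc5 and Ercc1 were kept in every alternative run.

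The myeloid classes differed. In monocyte and macrophage-like cells Lig1 was at 21.2 against 5.47 CPM (3.87, 2 to 8.07) and Parp1 at 39.3 against 16 CPM (2.46, 1.63 to 3.78), both called at 1d as well, so 2 of 18 were higher (14.9%) and 1, Apex1 (0.553), was lower (13.9%). This Apex1 call was lost under 7 of 15 alternatives, with a ratio of 0.730 within finer clusters. In neutrophil precursor-like cells 4 of 23 were higher (19.8%) and 2 lower (16.2%): Ddb1 at 51.9 against 27.0 CPM (1.93, 1.49 to 2.5), Lig1 at 63.7 against 36.8 CPM (1.73, and 1.04 within finer clusters), Xrcc1 (2.48) and Rad50 (2.21), and Polk (0.180) and Xpa (0.537). The calls of Rad50, Ddb1 and Lig1 were lost under 4 of 14, 3 of 17 and 3 of 16 alternatives. The summed ratio in these cells, 1.26, became 0.930 within finer clusters. In mature neutrophil-like cells Xpc was the 1 of 11 that was higher (15%), at 44.8 against 14.9 CPM (3.01, 1.55 to 5.40), and 0 were lower (5.28%). The class joins 2 clusters, which held 1363 and 1356 of its Ctrl cells and 60 and 85 of its 7d cells, and the TMM factor at 7d was 0.43 (log2). It was 0.32 in the Aspn and Sfrp2 cluster, 0.11 in neutrophil precursor-like, -0.16 in T cell-like and -0.12 in Cd8b1 and Tdrp cells, and TMM scaling ended the calls of Xrcc5 in T cell-like cells and of Xrcc6 and Xpa in the Aspn and Sfrp2 cluster. In conventional dendritic cell-like cells Parp1 (1.77) was the 1 of 9 higher (11.9%), with 0 lower (16%). In the Aspn and Sfrp2 cluster 3 of 26 were higher (20.4%), Mre11a (3.46), Xrcc6 (3.39) and Xpa (2.36), and 1 lower (13.2%), Apex1 (0.358). There the osteoblast markers stood at 74841 CPM in Ctrl and 40622 CPM at 7d and the periodontal ligament markers at 2945 and 11241 CPM, and their part was not tested. Apex1 was below 1 in all 6 classes where it had enough UMIs (0.358 to 0.939). Polk was below 1 in 5 of 6, and in the other, mature neutrophil-like cells, it had 0 UMIs at 7d, too few to give a direction.

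**Figure D5:**
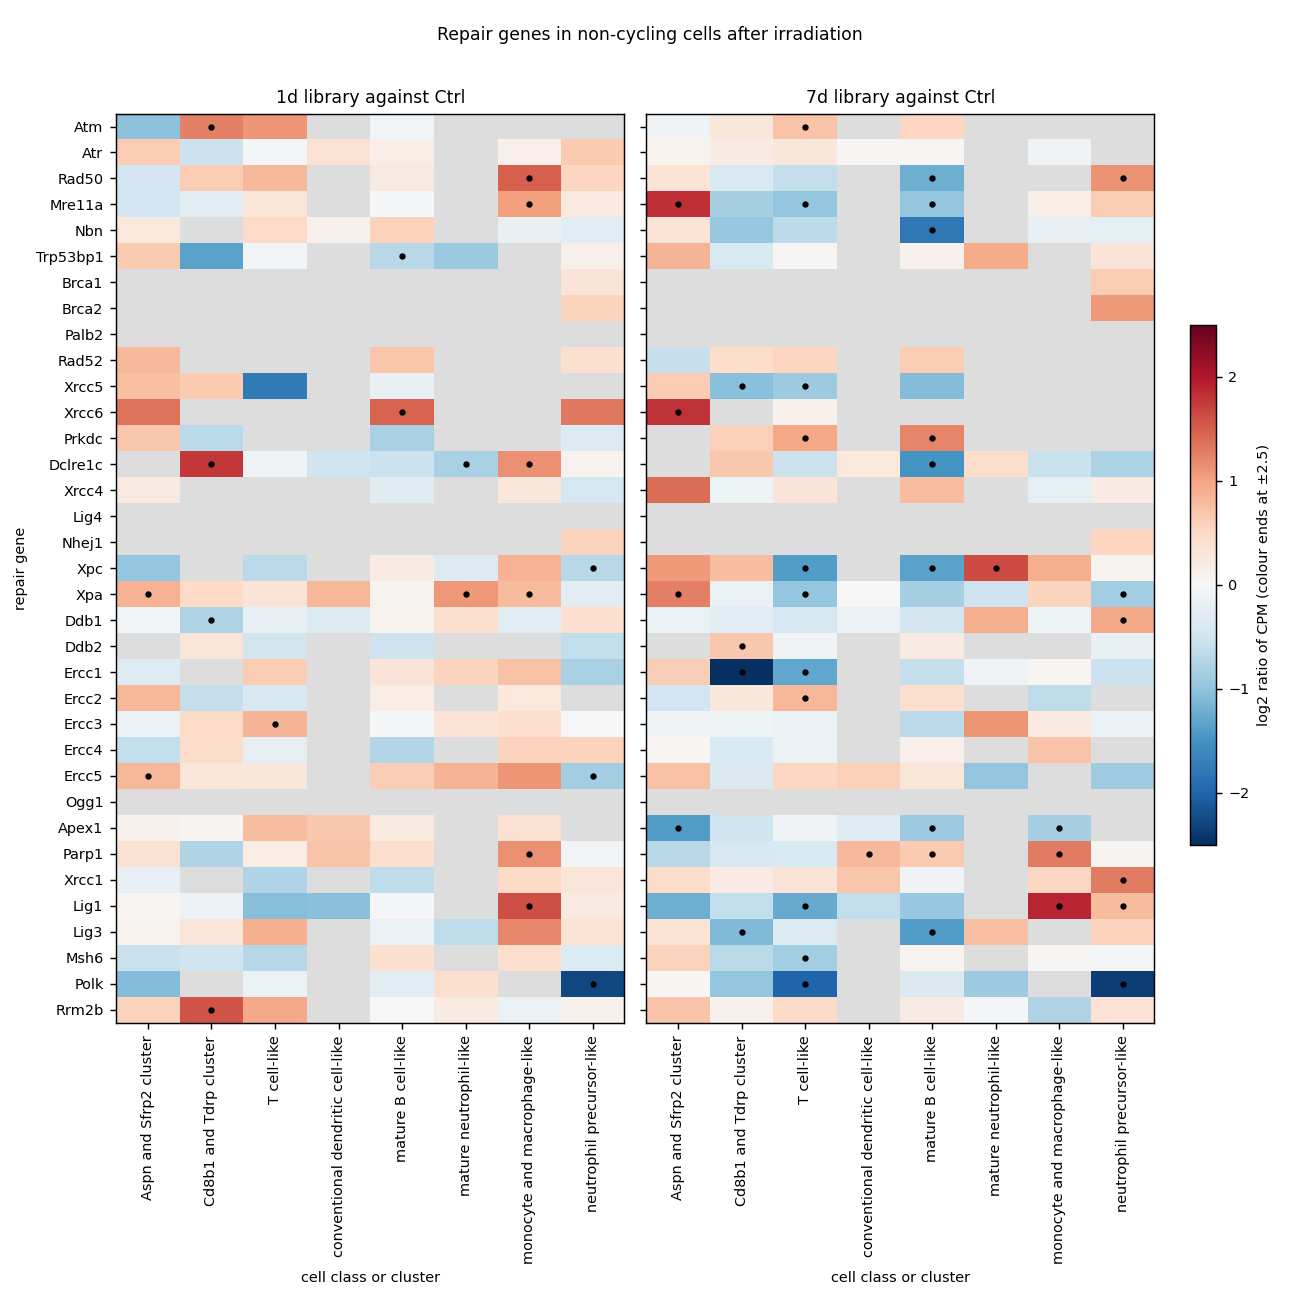
Log2 ratio of CPM at 1d and at 7d over Ctrl (colour, red for higher and blue for lower than Ctrl) in non-cycling cells of 8 classes, for each of the 35 genes (rows), with dots for calls and grey for fewer than 20 UMIs. Neutrophil precursor-like Polk is blue at both times, and Parp1 and Lig1 are red at both times in monocyte and macrophage-like cells.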

How the data were processed

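UMI counts per gene and cell were deposited by the authors as filtered matrices made with Cell Ranger 6.1.1, per the file headers. CASAVA 1.8, Cell Ranger, Seurat and the mm10 build are named in the submitters' processing notes. Alignment settings and the annotation release were not given in the sources used here. Total UMIs were 41048084 in Ctrl, 46119700 at 1d and 49998293 at 7d.

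Cells with at least 500 UMIs, 250 genes and at most 15% mitochondrial UMIs were kept, which removed 2435 Ctrl, 916 1d and 1247 7d barcodes, most of them with over 50% haemoglobin UMIs. Doublets were removed by Scrublet, with its automatic threshold in Ctrl (257 cells) and, where that marked under 0.5% of cells, as the highest scores at 0.8% per 1000 barcodes (248 at 1d, 403 at 7d). The rest were clustered (2000 variable genes, 30 principal components, 15 neighbours, Leiden resolution 1) with scanpy 1.11.5 and leidenalg 0.10.2 under python 3.11.15, numpy 2.4.6, scipy 1.17.1, pandas 2.3.3 and matplotlib 3.10.9. A cluster was named from marker lists when at least 3 markers of a class were detected and raised above the other cells. Markers of that class also had to be among its 10 leading genes or be high on average. The 10 leading genes could not go against the name. Cells under 1000 UMIs (394, 99 and 82) were in neither the cycling nor the non-cycling group. UMIs were summed per class and library. Intervals are exact Poisson for levels and exact Clopper-Pearson, on the split of UMIs, for ratios, and cover counting error only. A gene with 0 UMIs on 1 side was set to a floor of 3 counts for that side. All 35 members could be named; of 92 wider repair genes, up to 2 per comparison and direction were named, the called ones furthest from 1 by the nearer end of the interval (1 of them is not reported here). The members and lists were chosen with earlier results of these data known. The scripts were tested on simulated data. 15 other settings were tried, and 2 more were chosen after seeing the data: clusters made without the members and the cycling genes, and ratios stratified by finer clusters (Leiden resolution 2, "within finer clusters").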

Additional observations from a re-analysis of the deposited data

How the results depend on the processing

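No paired analysis was possible because each group had 1 library, and no library could be left out. Calls describe these libraries and not the conditions. Over the compared pairs, the mean log2 ratio of the summed members was 0.50 for cycling against non-cycling cells, 0.10 at 1d and 0.09 at 7d, with 42 higher and 9 lower, 14 and 6, and 17 and 22 calls. The median summed level over the 8 classes compared in all libraries was 395, 435 and 404 CPM in Ctrl, 1d and 7d. The cycling mean became 0.45 with a stricter cell filter, 0.32 with doublets kept, 0.27 with TMM factors, 0.39 without abundant gene families in the denominator, 0.56 with cells thinned, 0.55 after subtracting 5% free RNA, 0.84 with cycling called without thinning, 0.70 with 3 of 6 genes, 0.94 with at least 100 cells, 0.62 with clusters made without the members and 0.23 within finer clusters. The 7d mean was 0.17 at Leiden resolution 0.5. The median levels were 496 at 1d and 460 at 7d at resolution 0.5, 503, 556 and 568 without abundant families, and 426 in Ctrl and 369 at 7d with cells thinned.

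Call counts in cycling cells were 6 and 1 with cells thinned, 73 and 14 without thinning for the cycling call, 23 and 3 with 3 of 6 genes, 19 and 4 at a minimum of 100 UMIs and 27 and 4 with at least 100 cells, and lower calls were 14 with 1 of 6 genes. At 1d they were 1 and 2 with cells thinned, and higher calls were 9 without thinning for the cycling call, 3 at 100 UMIs and 9 with at least 100 cells, with 1 lower at a fold of 2. At 7d they were 4 and 8 with cells thinned, 6 and 7 at 100 UMIs, and 9 higher at a fold of 2. Reversed ratios were, in erythroid cell-like cells at 7d, Ddb1 0.962 (doublets kept) and 0.748 (TMM), Parp1 0.762 (doublets kept) and Trp53bp1 0.707 (TMM); Ercc4 in the Pf4 and Muc13 cluster at 7d, 1.01 without thinning and 1.06 with 1 of 6 genes; in neutrophil precursor-like cells at 1d, Xrcc5 0.463 (3 of 6 genes) and Xpc 0.912 (within finer clusters); and the 7d against Ctrl sum in neutrophil precursor-like cells, 0.933 without thinning and 0.930 within finer clusters. The cause was not tested. A minimum of 20 UMIs left 8 to 34 of the 35 members per comparison, so a difference in the rest was not detectable at this depth.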

Other observations

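A wider list of 92 repair genes that are no members was read the same way. In cycling against non-cycling cells, 163 of 499 values were higher and 11 lower, where 16.3% and 8.28% of all gene values of the 7 pairs were. Neutrophil precursor-like cells at 1d gave 44 of 70 higher and 1 lower (24.8% and 10.6% of all genes). At 7d they gave 21 of 46 and 1 (17.4% and 8.3%). The erythroid cell-like pair, with 70.6% of all genes higher, gave 40 of the 163, out of 47 values. Granulocyte progenitor-like cells at 7d gave 4 of 84 and 2 (4.16% and 5.06%). The Pf4 and Muc13 cluster at 7d gave 11 of 88 and 3 (5.76% and 6.72%). In pro-B and large pre-B cell-like cells at 1d, 17 of 80 were higher and 2 lower, and in the Pf4 and Muc13 cluster at 1d 26 of 84 and 2, where 6.58% and 8.14%, and 12.2% and 12.7%, of all genes were. The replication checkpoint adaptor Clspn had 148 UMIs in cycling and 9 in non-cycling erythroid cell-like cells at 7d (ratio 13.2, 6.78 to 29.5). The nuclease and helicase Dna2 had 35 against 0 there (ratio 9.38 at a floor of 3 UMIs, interval from 7.23). Mgmt, which removes alkyl groups from guanine directly, was lower in cycling cells of the Pf4 and Muc13 cluster at 1d (6 against 102 UMIs, 0.161), and the demethylase Alkbh3 in pro-B-like cells (0.404).

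At 1d against Ctrl, 28 of 363 values of the wider list were higher and 11 lower (6.68% and 6.38% of all gene values were), and at 7d 35 of 366 were higher and 35 lower (13.3% and 13.8%). In neutrophil precursor-like cells Mgmt had 33 UMIs in Ctrl, 0 at 1d and 1 at 7d (ratio 0.0469 at 7d), beside the lower Polk of the same cells. There the checkpoint kinase Chek2 had 22 UMIs at 1d and 0 in Ctrl (ratio 3.24 at a floor of 3 UMIs, interval from 2.42). The glycosylase Neil1 had a ratio of 0.285 at 1d in these cells. At 7d Rif1, a partner of Trp53bp1, had 3.89 (2.5 to 6.21) there and the helicase Blm 0.226. The replication clamp Pcna was higher in mature neutrophil-like cells at 7d (2.68, 1.93 to 3.64).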
